A study of Mus musculus with 32 samples.

Results

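Expression of 10 genes of branched-chain amino acid catabolism was compared between biopsies of MYC-driven and MYCN-driven mouse hindbrain tumors. The genes were listed by symbol (Bcat1, Bcat2, Bckdha, Bckdhb, Dbt, Bckdk, Ivd, Mccc1, Mccc2 and Pcca), and all 10 were found by their Ensembl identifiers among the 37310 genes of the count table. All 10 also passed the filter on low counts, which kept 21024 genes with a CPM (counts scaled to a common library size) above 1 in at least 3 tumors. The comparison used the 14 tumors among the 32 samples of the series.

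The 6 GMYC tumors came from mice of the Glt1-tTA/TRE-MYC strain, a Tet-OFF model in which a transactivator expressed from the Glt1 (glutamate transporter) promoter switches on a MYC transgene unless doxycycline is given. The 8 GTML tumors came from the corresponding model with MYCN in place of MYC under the same promoter. Both groups thus carry an oncogene driven in Glt1-expressing cells, and no tumor-free tissue was among the samples compared. The ages of the mice sequenced are not given in the sources used here. The labels do not state that each biopsy came from a separate mouse, so p-values measure the spread between these biopsies. By the study's methods 7 GTML tumors came from earlier work, and the labels do not say which these are, so the model and the time of sequencing cannot be told apart.

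Leucine, isoleucine and valine are broken down mainly in mitochondria. A transaminase (Bcat1 in the cytosol, Bcat2 in the mitochondrion) first moves the amino group onto 2-oxoglutarate, which makes glutamate. The branched-chain ketoacid dehydrogenase (BCKDH) complex then commits the carbon skeleton to breakdown in an irreversible step, under the control of a kinase that switches it off and a phosphatase that switches it on. In brain, the first step is known as a source of nitrogen for glutamate, and Bcat1 is expressed at high levels in several brain tumors.

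The driver genes matched the labels. The 6 GMYC tumors held 33.4 to 166 CPM of Myc against 2.60 to 8.68 CPM in the 8 GTML tumors, which in turn held 119 to 191 CPM of Mycn against 7.65 to 34.4 CPM. The study describes the MYC transgene as human, while reads were counted on mouse genes. The Myc values therefore check the labels and do not measure the level of the transgene. Total counts per GMYC tumor lay between 6218378 and 7279811 and per GTML tumor between 4602294 and 6317404, and the 10 genes held between 72 and 2175 counts per tumor, so that counting error was small for most of them. Small nucleolar RNAs (snoRNAs) took more than 0.3% of counts in GMYC tumors 1 to 4 and GTML tumors 1 and 2 and less in the other 8 tumors. No label of the study names this split, which was seen in the counts. It follows the order of the sample records, in which all tumors above 0.3% come before all tumors below. What this order stands for is not given. The sides hold the models in unequal numbers (4 GMYC and 2 GTML above, 2 GMYC and 6 GTML below), so split and model are partly confounded. Results within each side follow after the single genes. Markers of Group 3 medulloblastoma (Otx2, Npr3, Crx and Nrl) and of neuronal character (Syp and Tubb3) were detected in all tumors. The summed level of these 6 genes was 1012 to 1245 CPM in GMYC and 767 to 1224 CPM in GTML tumors. Of the 6, 1 passed the test for a difference between the models, the neuronal marker Tubb3 (lower in GTML). The study describes a single GTML tumor with an SHH-like signature and left it out of its own comparison of the models. The labels do not name this tumor, so all 8 GTML tumors were used here, and values without each tumor are given where a call changed.

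To show the sequence context of the genes that differed most between the models, the promoter windows of Bckdhb, Bckdk and Ivd are printed, together with that of Mccc2, the only gene with the E-box CACGTG among the 9 with a window, the core motif bound by MYC and MYCN with MAX. Each window runs 5′ to 3′ on the gene's own strand from 250 bases before to 50 bases after the RefSeq start, in the GRCm38.p6 assembly. The positions are Bckdhb chr9:83924887-83925186 (plus strand), Bckdk chr7:127903823-127904122 (plus), Ivd chr2:118861744-118862043 (plus) and Mccc2 chr13:100015590-100015889 (minus). Capitals mark CCAAT or its reverse complement ATTGG (the CCAAT box) and CACGTG (the E-box).
Bckdhb: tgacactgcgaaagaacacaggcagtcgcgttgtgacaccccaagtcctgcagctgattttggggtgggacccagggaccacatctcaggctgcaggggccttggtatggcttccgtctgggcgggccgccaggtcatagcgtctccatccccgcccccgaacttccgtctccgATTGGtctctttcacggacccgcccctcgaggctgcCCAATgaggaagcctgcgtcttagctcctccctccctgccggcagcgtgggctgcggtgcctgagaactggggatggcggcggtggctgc
Bckdk: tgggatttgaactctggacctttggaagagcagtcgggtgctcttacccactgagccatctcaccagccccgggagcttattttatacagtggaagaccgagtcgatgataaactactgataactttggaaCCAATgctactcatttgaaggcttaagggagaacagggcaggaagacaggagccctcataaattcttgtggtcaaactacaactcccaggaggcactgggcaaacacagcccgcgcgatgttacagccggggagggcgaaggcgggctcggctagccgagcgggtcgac
Ivd: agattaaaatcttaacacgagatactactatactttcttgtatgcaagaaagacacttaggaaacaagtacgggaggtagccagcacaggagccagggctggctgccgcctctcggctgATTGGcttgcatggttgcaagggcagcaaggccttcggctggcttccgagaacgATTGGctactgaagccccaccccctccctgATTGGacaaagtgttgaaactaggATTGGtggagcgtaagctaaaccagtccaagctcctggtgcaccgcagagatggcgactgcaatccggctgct
Mccc2: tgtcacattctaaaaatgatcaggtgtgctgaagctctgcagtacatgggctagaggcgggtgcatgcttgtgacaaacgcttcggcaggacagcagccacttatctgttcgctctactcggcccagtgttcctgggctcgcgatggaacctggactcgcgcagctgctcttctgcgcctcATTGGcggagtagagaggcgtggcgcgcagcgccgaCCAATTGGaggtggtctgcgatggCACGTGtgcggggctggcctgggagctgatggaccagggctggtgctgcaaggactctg

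RefSeq windows were matched for 9 of the 10 genes (13 windows), and Dbt had no entry. In Mccc2 the first base of the E-box lay 9 bases before the start, and 2 of its 3 CCAAT matches overlapped each other. Of all 32851 mouse promoter windows, 7.15% held CACGTG, against 1 of the 13 windows here. The CCAAT box, searched on both strands, was found in 7 of the 9 matched genes (Bcat1, Bckdhb, Bckdk, Ivd, Mccc1, Mccc2 and Pcca) and in 9 of the 13 windows, against 37.4% of all windows. Ivd held 4 CCAAT matches, Bckdhb 2 in the printed window and Bckdk 1. A match describes the letters in this window and not the binding of a factor.

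Of the 10 genes, 4 passed an adjusted p of 0.05 in edgeR's quasi-likelihood test, and all 4 were lower in GTML than in GMYC tumors. These were Bckdhb and Dbt, which encode subunits of the BCKDH complex, Bckdk, which encodes its kinase, and Ivd, which encodes the next dehydrogenase of leucine breakdown. Across all genes tested, 21.2% passed the same threshold in either direction and 9.71% were lower in GTML. The median log2 fold change (GTML over GMYC, as throughout, called the log2 change from here and given with its standard error, SE, from the same test) was -0.38 over the 10 genes and 0.04 over all genes tested. Under the stricter rule of an adjusted p below 0.01 and more than a 2-fold change, Bckdhb alone passed, where 3.22% of all genes did. These are bulk tumors, so fewer cells expressing a gene and less RNA per cell cannot be told apart.

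**Figure D1:**
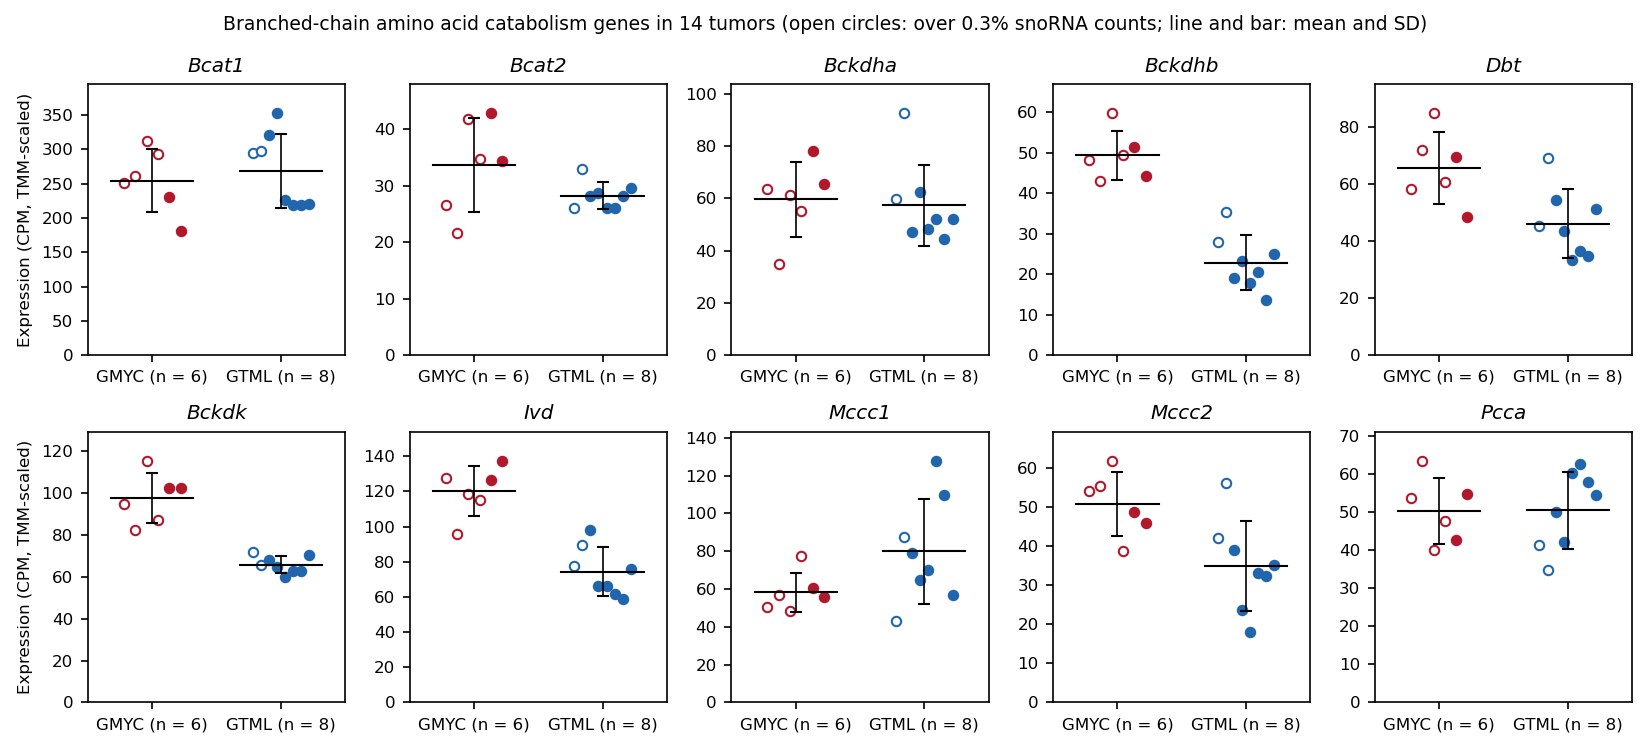
Expression of the 10 genes in each tumor, in CPM after TMM scaling, for 6 GMYC (red) and 8 GTML (blue) tumors. Lines and bars are means and SDs, open circles are the tumors with more than 0.3% of counts on snoRNAs. Every GTML tumor lies below every GMYC tumor for Bckdhb and Bckdk.

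The transaminases did not pass the test. Bcat1 (ENSMUSG00000030268), the cytosolic form, had the highest count of the 10 genes in every tumor. It lay at 181 CPM in the lowest, a median of 256 and 312 CPM in the highest GMYC tumor, and at 219, 260 and 352 CPM in GTML tumors. The groups overlapped over most of their range, and the log2 change was 0.08 (SE 0.144, adjusted p = 0.715). The GTML tumors fell into 4 at 294 CPM or more and 4 between 219 and 227 CPM.

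Bcat2 (ENSMUSG00000030826), the mitochondrial form, lay at 21.7 CPM in the lowest, a median of 34.6 and 42.8 CPM in the highest GMYC tumor, and at 26.0, 28.3 and 33.0 CPM in GTML tumors. The GTML tumors sat within the range of the GMYC tumors and were less spread, with an SD of 2.37 against 8.31 CPM. The log2 change was -0.25 (SE 0.160, adjusted p = 0.259). The ratio of Bcat1 to Bcat2 counts had a median of 7.95 in GMYC and 8.86 in GTML tumors, with overlapping ranges of 5.26 to 12.1 and 7.43 to 12.2.

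The catalytic core of the BCKDH complex is built from the E1 alpha subunit (Bckdha), the E1 beta subunit (Bckdhb) and the E2 transacylase (Dbt), and 2 of these 3 genes passed the test. Bckdhb (ENSMUSG00000032263) had the largest change of the 10 genes. It was at 43.1 CPM in the lowest, a median of 48.8 and 59.7 CPM in the highest GMYC tumor, and at 13.6, 21.96 and 35.5 CPM in GTML tumors. All 8 GTML tumors were below all 6 GMYC tumors. Bckdhb and Bckdk were the 2 of the 10 genes whose models did not overlap, which was so for 4.62% of all genes tested, 2.48% with GTML below and 2.14% with GTML above. The means of 49.3 ± 5.96 CPM (SD, n = 6) and 22.9 ± 6.76 CPM (SD, n = 8) differed 2.15-fold, with a log2 change of -1.11 (SE 0.186, adjusted p = 0.00312). GTML tumor 2, at 35.5 CPM, was the GTML tumor nearest to the GMYC range, and GTML tumor 7, at 13.6 CPM, was the lowest.

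Bckdha (ENSMUSG00000060376), whose product forms the E1 enzyme with that of Bckdhb, was at 34.8 CPM in the lowest, a median of 62.3 and 78.1 CPM in the highest GMYC tumor, and at 44.3, 52.2 and 92.5 CPM in GTML tumors. The highest and the lowest of these values were those of GTML tumor 2 and GMYC tumor 2. The log2 change was -0.06 (SE 0.189, adjusted p = 0.849). Of the 1899 exon bases of Bckdha, 1171 are shared with B3gnt8 on the opposite strand, which held 3 to 46 counts, and since strand handling is not described, reads of the 2 genes cannot be fully separated.

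Dbt (ENSMUSG00000000340) was at 48.6 CPM in the lowest, a median of 65.2 and 84.9 CPM in the highest GMYC tumor, and at 33.4, 44.6 and 69.3 CPM in GTML tumors. The groups overlapped, with GTML tumors 2, 3 and 8 above the lowest GMYC tumor. The log2 change of -0.51 (SE 0.175) passed narrowly, at an adjusted p of 0.0494. Its adjusted p lay between 0.0102 and 0.126 when each tumor was left out, and Dbt passed only without GMYC tumor 6, GTML tumor 2 or GTML tumor 3, so each of the other 11 tumors was needed for the call.

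Within single tumors, the count of Bckdha relative to Bckdhb separated the models. The ratio was 0.807 in the lowest, a median of 1.22 and 1.52 in the highest GMYC tumor, and 2.09, 2.57 and 3.26 in GTML tumors. The lowest GTML ratio was above the highest GMYC ratio among all 14 tumors. The same order on each side of the snoRNA split was thus given in advance and adds nothing to this result. The ratio of Dbt to Bckdhb had medians of 1.29 and 1.92, with GMYC tumor 2 (1.67) above the lowest GTML tumor (1.62). The pairs of genes were chosen with the fold changes known, and the ratios are given without a test.

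**Figure D2:**
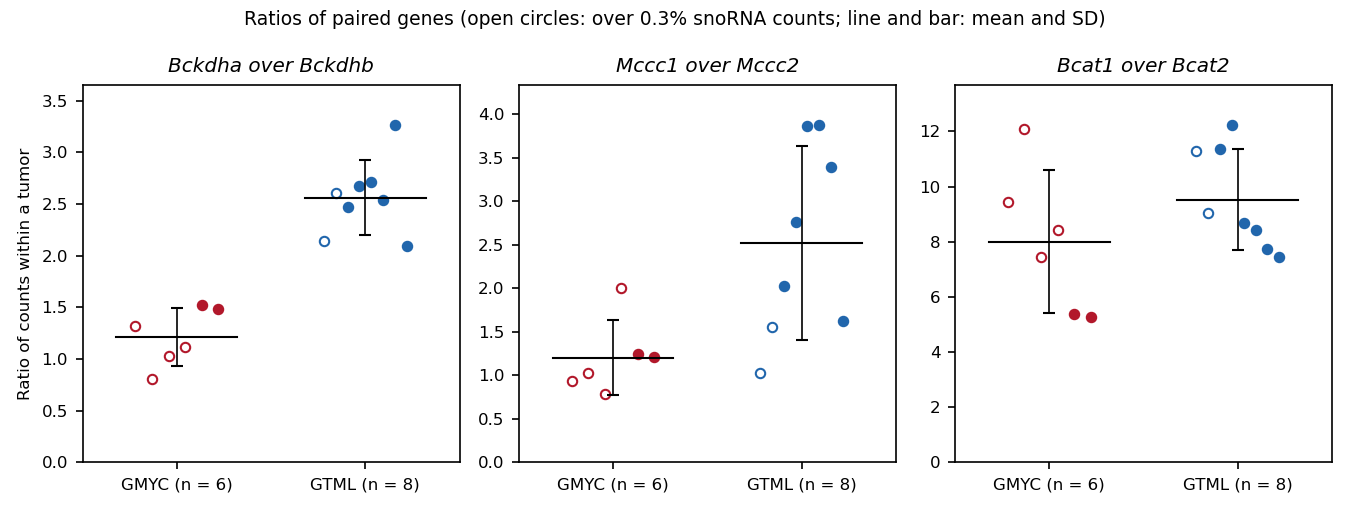
Ratio of raw counts of 2 genes within each tumor for Bckdha over Bckdhb, Mccc1 over Mccc2 and Bcat1 over Bcat2, in 6 GMYC (red) and 8 GTML (blue) tumors, with mean and SD. The Bckdha to Bckdhb ratio is at most 1.52 in GMYC and at least 2.09 in GTML tumors, and the other ratios overlap.

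Bckdk (ENSMUSG00000030802) encodes the kinase that phosphorylates the E1 enzyme and holds the complex inactive. It was at 82.5 CPM in the lowest, a median of 98.7 and 116 CPM in the highest GMYC tumor, and at 59.9, 65.1 and 71.8 CPM in GTML tumors. All GTML tumors were below all GMYC tumors, and they lay close together, with an SD of 4.06 CPM around a mean of 65.7 CPM. The mean in GMYC tumors was 97.5 ± 11.96 CPM (SD, n = 6), which gave a log2 change of -0.57 (SE 0.0967, adjusted p = 0.00319). Ppm1k, which encodes the phosphatase that reverses the kinase, was also lower in GTML tumors, at 28.5 ± 11.2 CPM (SD, n = 8) against 54.8 ± 14.5 CPM (SD, n = 6), a log2 change of -0.94 (SE 0.240, adjusted p = 0.0149). The genes of both regulators were thus lower in the same model, and their ratio overlapped, with medians of 1.73 in GMYC and 2.62 in GTML tumors and ranges of 1.42 to 3.17 and 1.25 to 4.24.

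Ivd (ENSMUSG00000027332) encodes isovaleryl-CoA dehydrogenase, the step of leucine breakdown that follows the BCKDH complex. It was at 96.0 CPM in the lowest, a median of 123 and 137 CPM in the highest GMYC tumor, and at 58.7, 71.0 and 98.0 CPM in GTML tumors. The groups met at a single point, since GTML tumor 3 (98.0 CPM) was above GMYC tumor 2 (96.0 CPM), and all other GTML tumors were below all GMYC tumors. The means of 120 ± 14.2 CPM (SD, n = 6) and 74.2 ± 13.9 CPM (SD, n = 8) gave a log2 change of -0.70 (SE 0.128, adjusted p = 0.00444).

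Mccc1 and Mccc2 encode the biotin-carrying alpha and the beta subunit of methylcrotonyl-CoA carboxylase, the next enzyme of leucine breakdown, and their point estimates lay on opposite sides of 0. Mccc1 (ENSMUSG00000027709) was at 48.5 CPM in the lowest, a median of 56.4 and 77.5 CPM in the highest GMYC tumor, and at 43.2, 74.5 and 128 CPM in GTML tumors. The spread among GTML tumors was wide, with GTML tumors 6 and 7 at 110.0 CPM or more and GTML tumor 1 below all GMYC tumors. The log2 change was 0.45 (SE 0.211, adjusted p = 0.128), and without GTML tumor 1 it was 0.55 and passed (adjusted p = 0.0477).

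Mccc2 (ENSMUSG00000021646) was at 38.7 CPM in the lowest, a median of 51.4 and 61.8 CPM in the highest GMYC tumor, and at 18.1, 34.1 and 56.1 CPM in GTML tumors. GTML tumor 2 was the highest GTML tumor, and only it, GTML tumor 1 and GTML tumor 3 were above the lowest GMYC tumor. The log2 change was -0.54 (SE 0.208, adjusted p = 0.0733), and without GTML tumor 2 it was -0.67 and passed (adjusted p = 0.0155). The ratio of Mccc1 to Mccc2 counts ranged from 0.785 to 2.00 in the GMYC group, with a median of 1.123, and from 1.03 to 3.88 in the GTML group, with a median of 2.395.

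Pcca (ENSMUSG00000041650) encodes the biotin-carrying alpha subunit of propionyl-CoA carboxylase, on the route from isoleucine and valine to succinyl-CoA. It was at 40.2 CPM in the lowest, a median of 50.8 and 63.6 CPM in the highest GMYC tumor, and at 34.8, 52.3 and 62.7 CPM in GTML tumors. The groups overlapped over nearly their whole range, and the log2 change was 0.00 (SE 0.157, adjusted p = 0.999). Pcca shares 241 exon bases with Ggact on the opposite strand (57 to 163 counts), and Mccc1 shares 198 with Mccc1os (9 to 27 counts) and 94 with Gm15952 (0 to 30 counts). Opposite-strand genes absent from the count table share 622 exon bases with Bcat2 (0610005C13Rik), 337 with Bcat1 (Gm26666) and 321 with Mccc1 (B230207O21Rik). Each of these genes is thus limited in the same way as Bckdha.

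**Figure D3:**
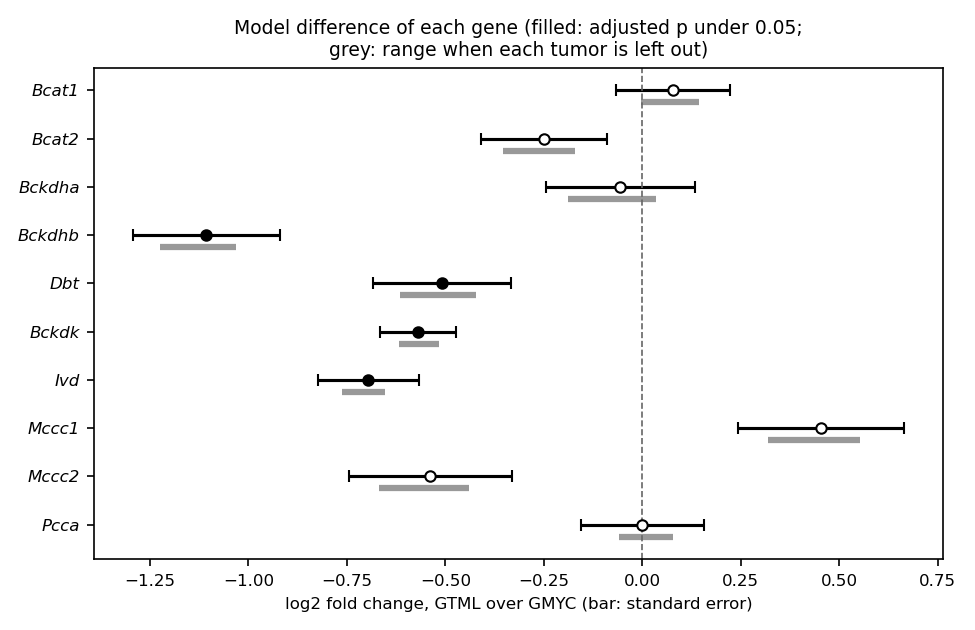
Log2 fold change of each gene, GTML over GMYC tumors, with its standard error. Filled points passed an adjusted p of 0.05, and grey bars give the range when each of the 14 tumors was left out. Bckdhb lies furthest from 0, at -1.11, and Mccc1 is the only gene with a point estimate above 0.4.

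Bckdhb, Bckdk and Ivd passed in all 14 fits that left out 1 tumor. Their log2 changes then ranged from -1.23 to -1.03, from -0.62 to -0.52 and from -0.76 to -0.65. Within the snoRNA split, the tumors below 0.3% (2 GMYC and 6 GTML) gave -1.27 for Bckdhb (adjusted p = 0.0186), -0.67 for Bckdk (adjusted p = 0.0211), -0.90 for Ivd (adjusted p = 0.0227) and -0.49 for Dbt (adjusted p = 0.182), where 13.3% of all genes passed. The tumors above 0.3% (4 GMYC and 2 GTML) gave -0.65 for Bckdhb (adjusted p = 0.328), -0.46 for Bckdk (adjusted p = 0.377), -0.44 for Ivd (adjusted p = 0.357) and -0.26 for Dbt (adjusted p = 0.689), and only 2 of 18921 genes passed there. On this side the 2 GTML tumors lay below the 4 GMYC tumors for Bckdhb (28.0 and 35.5 CPM against 43.1 to 59.7 CPM), Bckdk (65.7 and 71.8 against 82.5 to 116 CPM) and Ivd (77.6 and 89.8 against 96.0 to 128 CPM). For Bckdhb and Bckdk this order was given in advance, since the models did not overlap among all 14 tumors. For Ivd it was given as well, since GTML tumor 3, the only GTML tumor to reach the GMYC range, lay below 0.3%. The order thus adds nothing to the results over all 14 tumors. For Bckdha the sides differed in sign, at 0.52 above (adjusted p = 0.485) and -0.50 below (adjusted p = 0.0876), and neither passed. Pcca was at -0.42 above (adjusted p = 0.489) and 0.15 below (adjusted p = 0.622).

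Per kilobase of exon, levels can be compared between genes. Exons shared with opposite-strand genes limit this, most of all for Bckdha, which shares 1171 of its 1899 exon bases with B3gnt8. Over all 14 tumors, Bckdha was highest at 30.8 CPM per kilobase, followed by Bcat1 at 28.2, Bckdk at 21.5, Bckdhb at 19.0, Ivd at 17.1, Dbt at 16.3, Mccc2 at 14.9, Pcca at 9.69, Bcat2 at 7.84 and Mccc1 at 6.45 CPM per kilobase. Every pair of neighbours in this order overlapped between tumors. Counted over all exons, the lowest tumor for Bckdk, at 16.2 CPM per kilobase, was above the highest for Pcca (12.2), Mccc1 (11.7) and Bcat2 (10.98). With the exons of the longest transcript alone, this separation was lost for each of these genes. Over all 14 tumors Pcca was then at 19.5 and Bckdk at 23.3 CPM per kilobase. In GMYC tumors Bckdha (31.4 ± 7.56 CPM per kilobase, SD, n = 6) and Bckdhb (27.3 ± 3.30) lay close together, whereas in GTML tumors they were at 30.2 ± 8.14 (SD, n = 8) and 12.7 ± 3.74 CPM per kilobase. The order depends on which exons are counted as the gene, since with the longest transcript in place of all exons Bcat1 (33.5 CPM per kilobase) was above Bckdha (30.8) and Ivd (25.6) above Bckdk (23.3).

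The remaining genes of branched-chain breakdown, 19 in number, showed 5 that passed, all lower in GTML, and a median log2 change of -0.30. Among all genes tested 21.2% passed, 9.71% lower in GTML and 11.5% higher. Ppm1k is described above. Acat1, which splits acetoacetyl-CoA and 2-methylacetoacetyl-CoA at the end of the leucine and isoleucine routes, was at -0.57 (adjusted p = 0.0119, 178 CPM in GMYC and 120 CPM in GTML tumors). Echs1, a short-chain enoyl-CoA hydratase, was at -0.43 (adjusted p = 0.0216, 74.3 and 55.0 CPM). Mut, the cobalamin-dependent mutase downstream of propionyl-CoA, was at -0.51 (adjusted p = 0.0287, 91.7 and 64.4 CPM), and Acad8, the dehydrogenase of the valine route, at -0.40 (adjusted p = 0.0374, 89.2 and 67.7 CPM). Models overlapped for each of these 5 genes.

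The pyruvate and 2-oxoglutarate dehydrogenases are built like the BCKDH complex. Of 15 genes of these complexes, their regulators and lipoate synthesis, 3 passed (against 21.2% of all genes tested), all lower in GTML. They were the pyruvate dehydrogenase genes Dlat (-0.63, adjusted p = 0.00213, 167 CPM in GMYC and 108 CPM in GTML tumors), Pdhb (-0.59, adjusted p = 0.00942, 105 and 70.0 CPM) and Pdha1 (-0.51, adjusted p = 0.0280, 189 and 132 CPM). For Dlat all GTML tumors were below all GMYC tumors. In the pyruvate dehydrogenase both E1 genes, Pdha1 and Pdhb, passed, and in the BCKDH complex 1 of the 2 E1 genes did, a difference that was not tested. The median of the 15 genes was -0.15.

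Of 6 listed biotin-dependent carboxylase and biotin supply genes 5 were matched in the table, and 1 passed (against 21.2% of all genes tested). This was Acacb, the acetyl-CoA carboxylase of the mitochondrial outer membrane, which was higher in GTML, at 20.2 ± 12.5 CPM (SD, n = 8) against 6.11 ± 4.09 CPM (SD, n = 6), a log2 change of 1.72 (SE 0.435, adjusted p = 0.0143). The groups overlapped, at 3.10 to 13.2 CPM in GMYC and 10.2 to 48.1 CPM in GTML tumors. The median of the 5 genes was -0.17.

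Among 15 genes of leucine carriage and sensing, including the aminoacyl-tRNA synthetases of the branched-chain amino acids, 4 passed and all were lower in GTML. Of all genes tested 9.71% passed with a lower level in GTML, and the list median was -0.18. Slc7a8, a light chain of neutral amino acid exchangers, was at -1.18 (adjusted p = 0.0213) and ranged from 43.9 to 116 CPM in GMYC and from 9.11 to 55.1 CPM in GTML tumors. Slc3a2, the heavy chain that pairs with it, was at -0.42 (adjusted p = 0.0340, 154 CPM in GMYC and 115 CPM in GTML tumors). The leucyl- and isoleucyl-tRNA synthetase genes Lars and Iars were at -0.45 (adjusted p = 0.0101, 311 and 227 CPM) and -0.36 (adjusted p = 0.0249, 250 and 194 CPM).

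The amino group that leaves leucine enters glutamate. Of 11 genes that make, use or carry glutamate, 5 passed with a lower level in GTML, against 9.71% of all genes tested. Gls2, a glutaminase gene, was at 14.8 ± 3.75 CPM (SD, n = 8) in GTML against 28.6 ± 8.56 CPM (SD, n = 6) for GMYC, which gave a log2 change of -0.95 (SE 0.219, adjusted p = 0.0103). The other 4 were the aspartate transaminases Got1 (-0.73, adjusted p = 0.00650) and Got2 (-0.45, adjusted p = 0.0298), the phosphoserine transaminase Psat1 (-0.59, adjusted p = 0.00570) and glutamate dehydrogenase Glud1 (-0.40, adjusted p = 0.0430). The list median was -0.40.

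**Figure D4:**
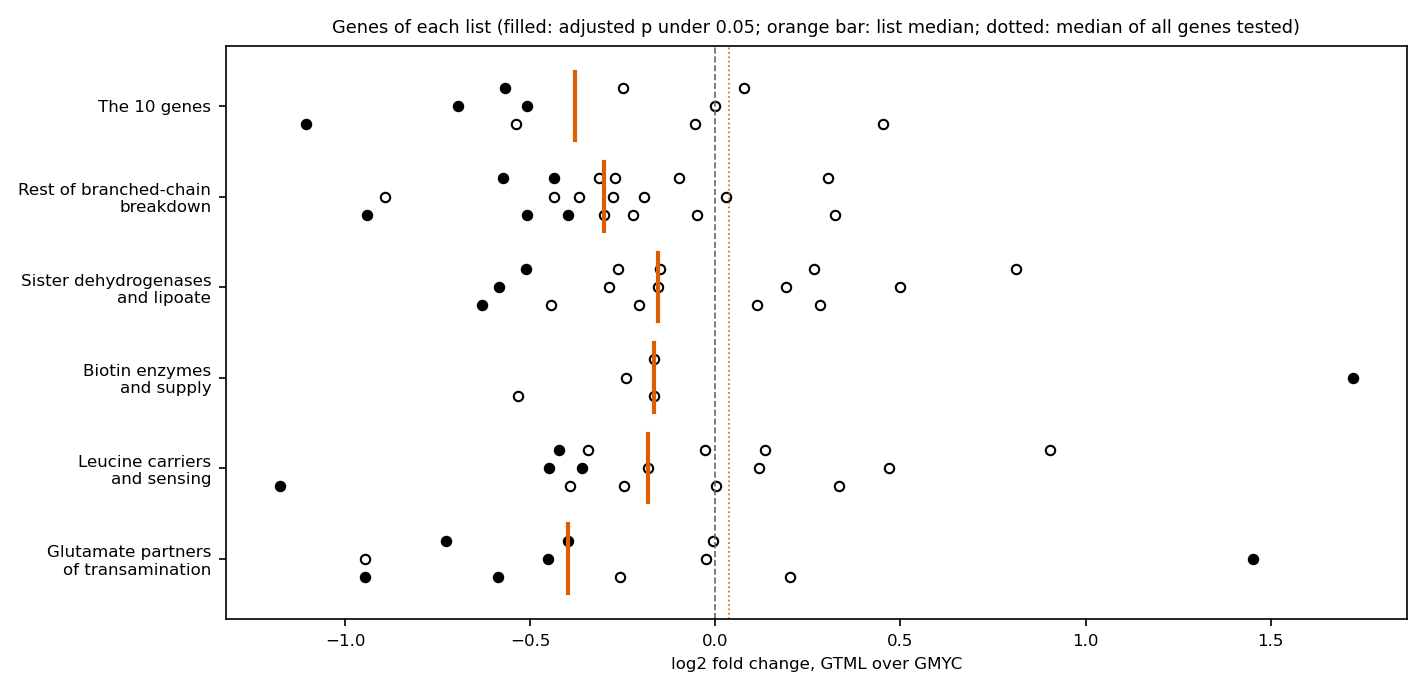
Log2 fold change, GTML over GMYC tumors, of each gene in the 10-gene group and in 5 lists of related genes. Filled points passed an adjusted p of 0.05, orange bars are list medians and the dotted line is the median of all genes tested (0.04). List medians lie between -0.40 and -0.15, and the filled point furthest above 0 is Acacb, at 1.72.

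Over the 5 lists, 19 of 65 genes passed, 17 lower and 2 higher in GTML, against 9.71% lower and 11.5% higher among all genes tested. This count depended on single tumors and on a covariate. It was 10 without GMYC tumor 3 and 9 with a covariate from Y-linked genes, with 2 genes higher in GTML in both, and 27 without GTML tumor 2. The share of all genes that passed moved in the same direction, from 21.2% to 12.5%, 8.22% and 30.7% in these fits. With that covariate the count for the 10 genes was 4 as well.

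Markers of other cells moved with the models in part. Astrocyte markers (Gfap, Aqp4, Aldh1l1, Slc1a3, S100b and Gja1) summed to between 142 and 565 CPM in GMYC (median 381) and between 43.6 and 305 CPM in GTML tumors (median 180). Their log2 changes lay between -1.22 and -0.04, and 0 of 6 passed. For the haemoglobin genes Hbb-bt, Hbb-bs, Hba-a1 and Hba-a2, 4 of the 5 erythroid markers, expression was lower in GTML. The remaining erythroid marker, Alas2, went the other way without passing, with a log2 change of 0.51. It was at 18.7 to 63.2 CPM in GMYC and 28.5 to 122 CPM in GTML tumors. The erythroid list summed to 53.4 to 176 CPM in GMYC and 41.6 to 134 CPM in GTML tumors. Among microglia and macrophage markers 0 of 6 passed (159 to 287 and 83.2 to 402 CPM), among endothelial markers 1 of 5, Kdr, which was higher in GTML (57.3 to 161 and 107 to 254 CPM), and among oligodendrocyte markers 2 of 6, Mog higher and Olig2 lower (153 to 341 and 157 to 356 CPM). Of the cerebellar neuron markers 1 of the 4 tested passed, Neurod1, which was lower in GTML, and the summed level was 245 to 329 CPM in GMYC and 228 to 281 CPM in GTML tumors. Neurod1 alone was at 217 to 258 CPM in GMYC and 186 to 225 CPM in GTML tumors, so this sum mainly follows 1 gene. Whether its RNA came from neurons or from tumor cells was not tested. Gabra6 was at 0 in 7 tumors, and the other markers were detected in every tumor. The part of these cells in the differences above was not tested.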

How the data were processed

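Total RNA of fresh-frozen biopsies was sequenced by Ion Torrent protocols per the labels. The study's methods name the Ion Proton for the GMYC tumors and describe most GTML tumors as earlier data. The authors aligned reads to mm9 with STAR and then Bowtie, counted reads in genes of a GENCODE annotation (featureCounts), and deposited these raw whole-number counts, not normalized. Versions differ between sources, and the submitters' processing notes name STAR 2.4.0, Bowtie2 2.2 and Subread 1.5.2. How strand and duplicates were handled is not given in the sources used here. Symbols and exon lengths came from GENCODE for GRCm38, matched by Ensembl identifier (32620 of 37310 genes, 87.4%).

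Counts were scaled by TMM and compared with edgeR 4.0.16 (R 4.3.3; quasi-likelihood test, Benjamini-Hochberg adjustment over all genes tested, threshold 0.05) on genes above 1 CPM in at least 3 tumors. SDs are over tumors. The study filtered in the same way but used limma-voom, and left out a GTML tumor. Limma-voom (limma 3.58.1) and DESeq2 1.42.0 were alternatives here, both on all 8 GTML tumors. On simulated counts of 20618 genes for this comparison, 154 of 200 genes changed by a log2 fold change of 2 were recovered, with 6 false calls. Figures were drawn with matplotlib 3.10.9.

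The members, lists and tests were chosen with earlier results of these data known. Named are all 10 genes, every gene of a list that passed (or the 2 with the smallest p where none did), and the drivers Myc and Mycn, except 1 list gene that is not reported here. Single cell markers named with a direction were those that passed and Alas2. They were chosen after their values were seen, as was Gabra6. Another 18 count columns have names that match no sample label and were not used, so the onalespib and Arf comparisons were not analysed here.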

Additional observations from a re-analysis of the deposited data

Results flagged for a closer look

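Of 20 groups of tumors examined (10 genes in 2 models), 1 held a tumor that lay apart from the others by more than Dixon's criterion allows, where chance gives 1. It was Bckdha in GTML tumor 2, the highest of its model at 92.5 CPM, with the next tumor at 62.4 CPM and a gap of 0.626 of the range. Without this tumor the GTML mean of Bckdha was 52.4 ± 6.63 CPM (SD, n = 7).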

How the results depend on the processing

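Of 27 alternatives, Bckdhb, Bckdk and Ivd passed in 25 and Dbt in 9. The count of 4 genes called was 5 with DESeq2 (Mccc2 added, 27.8% of all genes called), 3 to 5 when each tumor was left out (12.5% to 30.7% of all genes, against 21.2% with all tumors), 1 (Bckdhb) under the stricter rule of an adjusted p below 0.01 and more than a 2-fold change, and 0 among the 6 tumors above 0.3% snoRNA counts (3 at an unadjusted p under 0.05 in edgeR). The 19 list genes called became 10 to 27 when each tumor was left out, 11 over the 12 tumors numbered 1 to 6 (an alternative added after the data were seen), 9 with a covariate from Y-linked genes, 1 under the stricter rule and 0 above 0.3% snoRNA counts (14 at an unadjusted p under 0.05). Tumors of both models share the numbers 1 to 6, but same-numbered tumors did not deviate together (correlations from -0.21 to 0.24), so the numbers do not pair them. With the replicate number as a block over those 12 tumors, 0 of the 10 genes were called by edgeR (5 at an unadjusted p under 0.05) and 1 list gene (23 unadjusted), with 251 of 20617 genes called in all.

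Genes near 0 changed sign. When each tumor was left out, log2 fold changes lay between -0.0039 and 0.143 for Bcat1, -0.188 and 0.0344 for Bckdha, and -0.0582 and 0.0787 for Pcca. Bckdha was also at 0.0082 with the block, 0.0102 over the 12 tumors and 0.52 above 0.3% snoRNA counts. Pcca was at -0.0235 with limma-voom, -0.0173 without a filter, -0.0242 with protein-coding genes only, -0.0678 with the block, -0.0508 over the 12 tumors, -0.12 with a term for the snoRNA split and -0.42 above 0.3% snoRNA counts. The causes were not tested. Bckdhb in GTML tumors rests on the fewest counts, 72 in the lowest.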
